A study of Mus musculus with 8 samples.

Results

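The genes described here are 39 components of transforming growth factor beta (TGF-beta) and bone morphogenetic protein (BMP) signalling, namely secreted ligands, the proteins that store or block them, receptors and SMAD proteins. They were chosen by name: a row of the expression table belonged to the set when its annotated gene symbol was a listed symbol. All 39 were found, each by 1 row, so 39 of the 22206 rows are described. The rows came from left ventricular heart muscle of 8 male C57/BL6J mice aged 8 weeks, profiled on Affymetrix arrays. That there was 1 array per mouse is implied by the design text. Of these mice, 4 overexpressed the microRNA miR-100 specifically in the heart (miR-100 hearts) and 4 were wild type (wild type hearts). All 8 were labelled untreated, and no further allele or agent was named. The sources used here do not give the promoter behind the overexpression, the number of transgenic lines or whether the wild type mice were littermates.

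Ligands of this superfamily are secreted dimers that bring together type II and type I receptor kinases. The type I receptor phosphorylates receptor-regulated SMAD proteins, which join Smad4, enter the nucleus and act on target genes, while the inhibitory SMADs dampen the signal. TGF-beta and activin ligands signal mainly through Smad2 and Smad3, and BMP ligands through Smad1, Smad5 and Smad9. In the heart, TGF-beta is known for turning fibroblasts into matrix-producing, contractile cells, BMP signalling for heart development and vessel maintenance, and myostatin for restraining muscle growth.

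Bmpr2, a type II receptor for BMP ligands, and Bmpr1b, a type I receptor for them, are the members on the list of reported targets of the miR-99/100 family used here. A microRNA recognises messenger RNAs mainly through its seed, bases 2 to 8. The mature family members are shown, 5′ to 3′ from RefSeq (GRCm38.p6) with the seed in capitals, because they define which messenger RNA sites would be read by the added microRNA. Which arm of miR-100 was raised was not stated in the labels.
mmu-miR-100-5p: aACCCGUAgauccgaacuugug
mmu-miR-99a-5p: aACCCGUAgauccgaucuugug
mmu-miR-99b-5p: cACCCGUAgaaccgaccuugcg
mmu-miR-100-3p: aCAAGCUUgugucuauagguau
The miR-100-5p sequence lies at chr9:41531437-41531458 on the plus strand. All 3 of the 5p sequences have the seed ACCCGUA, whose complement in a messenger RNA is UACGGGU. Counted from the 5′ end, miR-99a-5p differs from miR-100-5p at 1 base (A16U) and miR-99b-5p at 4 bases (A1C, U11A, A16C and U21C), all outside the seed. The 3p arm of miR-100 has another seed, CAAGCUU.

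Values are log2 signals, so a difference of 1 is a doubling, and every difference is miR-100 minus wild type. The 8 arrays correlated between 0.988 and 0.993 over all rows. On the leading principal component miR-100 replicate 2 scored 30.8 and the other 3 miR-100 arrays 8.96 to 13.5, while wild type replicate 2 scored -38.2 and the other 3 wild type arrays -13.0 to -3.49. Replicate 2 of each group thus lay apart from its own group, at opposite ends. The annotation named 0 rows for miR-100, miR-99a or miR-99b, so the overexpression itself was not measured here. Of the markers that define the tissue, the ventricular light chain gene Myl2 stood at percentile 99.9 of all row means. The 8 atrial markers spread from percentile 1.44 for Dhrs9 to 99.7 for Nppa, with the atrial light chain genes Myl7 at 22.0 and Myl4 at 67.9. The design text implies that each array is another mouse. The spread behind each limma p-value, SE and interval is that among these 8 samples, drawn toward a value estimated over all rows.

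None of the 39 genes passed an adjusted p of 0.05 (0 of 39, limma with Benjamini-Hochberg adjustment over all 22206 rows), beside 0.14% of all rows, of which 0.0946% were higher and 0.045% lower. The lowest adjusted p of a member was 0.582. At an unadjusted p under 0.05 there were 2 members, both with lower values in miR-100 hearts, which is 5.13% of the members beside 7.73% of all rows (3.55% higher and 4.17% lower). These were Bmp1, a secreted metalloprotease, and Tgfbr3, the co-receptor betaglycan. Whole ventricle mixes cell types, so fewer cells of a type cannot be told apart from less RNA per cell. The 4 values of the groups overlapped in each of the 39 genes, while 4.54% of all rows had no overlap. Differences ran from -0.45 for Tgfbr3 to 0.20 for Acvrl1, with 16 above 0, 22 below 0 and Bmpr1a at 0, while 53% of all rows lay below 0. The median was -0.0525 over the members and -0.015 over all rows. Without miR-100 replicate 3 the median over the members turned to 0.0042, so its direction rests on that array. With array weights the median over the members was -0.017, beside -0.016 over all rows in the same fit.

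**Figure D1:**
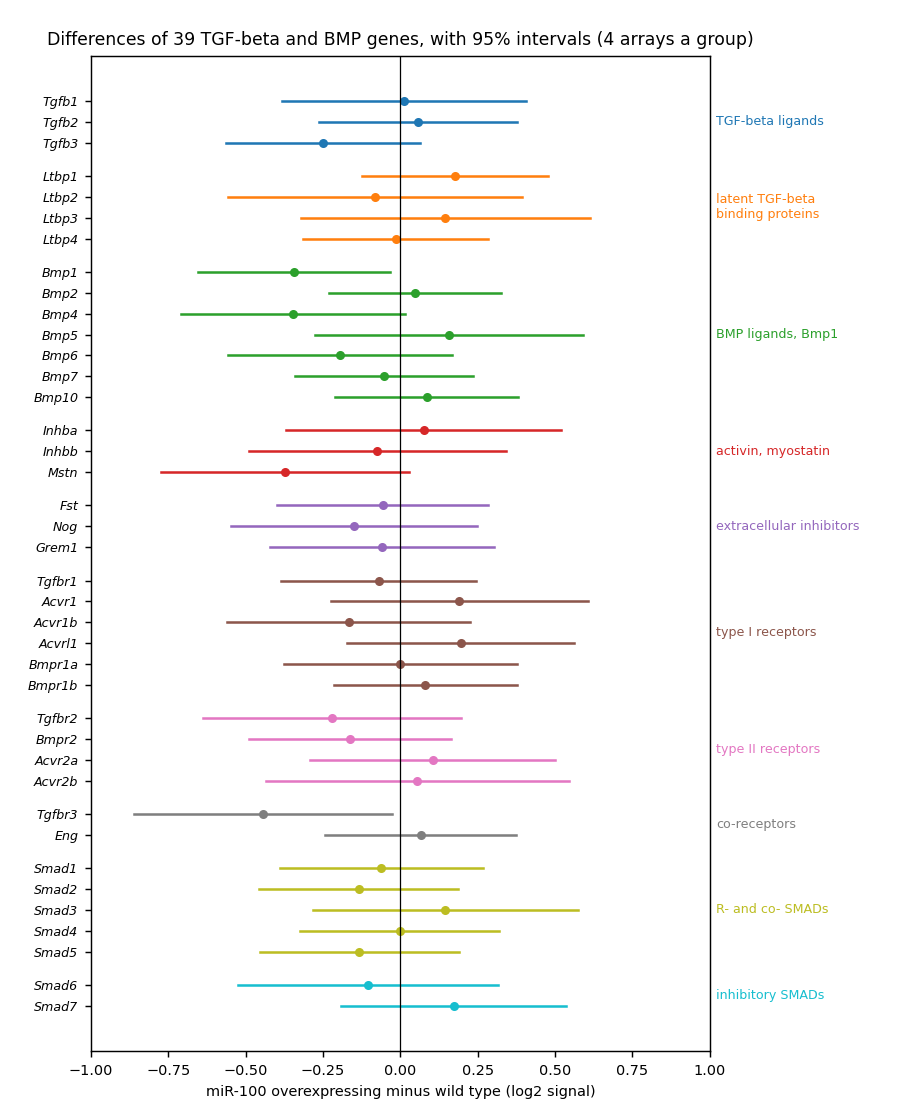
Differences of the 39 genes (horizontal axis, miR-100 overexpressing minus wild type, log2 signal), grouped by role, with points for the estimates and lines for 95% confidence intervals from limma (4 arrays a group). The intervals of Bmp1 and Tgfbr3 lie below 0, and the other 37 hold 0.

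The intervals show what sizes of change these arrays leave possible. The 95% confidence intervals reached 0.36 to either side of the estimate at the median, and 0.49 for the widest. Over all members they reached down to -0.86 for Tgfbr3 and up to 0.61 for Ltbp3. For 19 of 39 members the interval lay between -0.5 and 0.5, which is 48.7% of the members beside 43.6% of all rows. Ltbp2, Bmp2, Bmp7, Bmp10, Grem1 and Bmpr1b were among the dimmest rows, with means below the 25th percentile of all row means. How close their signals lie to the array's background was not measured here.

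Of the TGF-beta ligands, Tgfb3 had the lowest difference, and Tgfb1 and Tgfb2 differed by under 0.1. Tgfb1, the isoform most tied to fibrosis, had 10.47, 11.07, 10.61 and 10.98 in the 4 miR-100 hearts, against 10.90, 11.03, 10.72 and 10.43 in the 4 wild type hearts, a difference of 0.01 (95% interval -0.38 to 0.41). Both groups spanned nearly the same range. Tgfb2, the isoform required for heart valve and septum formation, averaged 7.75 ± 0.21 in miR-100 hearts and 7.70 ± 0.07 in wild type hearts (SD, n = 4 each). Tgfb3 had 7.63, 7.73, 7.74 and 7.37 in miR-100 hearts, against 7.69, 7.90, 7.97 and 7.91 in wild type hearts. For this ligand 3 wild type arrays stood above all miR-100 arrays and wild type replicate 1 lay among them. Its difference was -0.25 (SE 0.15, adjusted p = 0.733, limma).

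Genes of the latent TGF-beta binding protein family, of which some but not all tether inactive TGF-beta to the extracellular matrix, went in both directions. Ltbp1 had 8.90, 8.79, 8.59 and 8.75 in miR-100 hearts, against 8.66, 8.66, 8.42 and 8.58 in wild type hearts, a difference of 0.18 (SE 0.14, adjusted p = 0.848, limma). Its lowest miR-100 array lay below 2 of the wild type arrays. Ltbp3 differed by 0.15, Ltbp4 by -0.02 and the dim Ltbp2 by -0.08. Ltbp4 had the steadiest values of these 4 genes, with 9.97 ± 0.12 in miR-100 hearts and 9.98 ± 0.11 in wild type hearts (SD, n = 4 each).

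Among the BMP genes, Bmp1 and Bmp4 had the lowest differences. Bmp1 is named with the BMPs but is a protease that trims procollagen and releases growth factors from their carriers. It had 7.38, 7.50, 7.77 and 7.62 in miR-100 hearts, against 7.76, 7.93, 7.94 and 8.02 in wild type hearts, a difference of -0.35 (SE 0.14, unadjusted p = 0.0319, adjusted p = 0.582, limma). The groups met at a single point, where miR-100 replicate 3 lay just above wild type replicate 1. Bmp4, a ligand of early heart development, had 6.60, 6.44, 6.85 and 6.60 in miR-100 hearts, against 7.33, 6.69, 6.85 and 7.01 in wild type hearts. Its highest miR-100 array equalled a wild type array, and the difference was -0.35 (SE 0.17, unadjusted p = 0.0578, adjusted p = 0.675, limma).

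The remaining BMP ligands differed by -0.20 to 0.16. Bmp6, a ligand best known for controlling iron through liver hepcidin, had 9.02, 9.10, 9.13 and 9.14 in miR-100 hearts, against 8.87, 9.22, 9.55 and 9.53 in wild type hearts. The wild type arrays of this gene spread widely and the miR-100 arrays lay inside their range. Bmp5 differed by 0.16, Bmp7 by -0.05 and Bmp2 by 0.05. Bmp10, a ligand made mainly by atrial muscle, differed by 0.09 and was dim in both groups, with 3.78 ± 0.08 in miR-100 hearts and 3.69 ± 0.13 in wild type hearts (SD, n = 4 each).

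Of the activin and myostatin ligands, Mstn had the lowest difference. Mstn encodes myostatin, which restrains muscle growth and is also made by heart muscle. It had 5.27, 4.90, 4.78 and 4.83 in miR-100 hearts, against 5.55, 5.09, 4.98 and 5.65 in wild type hearts. Of the miR-100 arrays 3 lay below every wild type array, and replicate 1 lay among them. The difference was -0.37 (SE 0.19, unadjusted p = 0.0656, adjusted p = 0.683, limma). Inhba and Inhbb, which encode the subunits of activin A and activin B, differed by 0.08 and -0.08.

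The 3 secreted inhibitors all had differences below 0 and within 0.15 of it. Noggin, encoded by Nog, binds BMP ligands and keeps them from their receptors. Nog had 5.20, 4.55, 4.70 and 4.69 in miR-100 hearts, against 5.27, 4.62, 4.98 and 4.87 in wild type hearts, a difference of -0.15 (SE 0.18, adjusted p = 0.914, limma). The groups overlapped over most of their range. Without single arrays the difference of Nog ran from -0.29 (miR-100 replicate 1 left out) to -0.04 (wild type replicate 1 left out). Fst, whose product follistatin traps activin and myostatin, differed by -0.06, as did Grem1, whose product gremlin is another BMP antagonist.

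**Figure D2:**
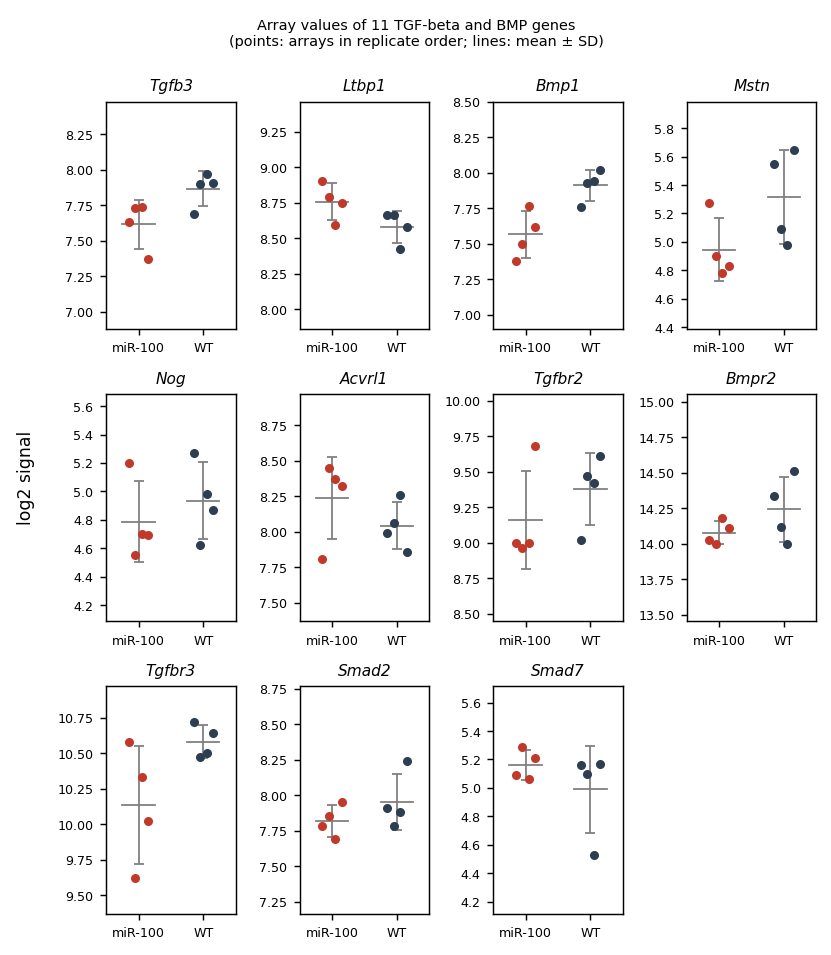
Log2 signal (vertical axes, each panel with its own range) on each array for 11 genes: Bmpr2, the member with the lowest unadjusted p in each role, and every member at an unadjusted p under 0.05. Points are arrays, with miR-100 overexpressing left and wild type right, and lines give mean ± SD (n = 4 each). The groups overlap in each panel, and in Tgfbr2 miR-100 replicate 4 stands above the other 3 miR-100 arrays.

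Bmpr2 had 14.03, 14.00, 14.18 and 14.11 in miR-100 hearts, against 14.34, 14.12, 14.00 and 14.51 in wild type hearts. Wild type replicates 1 and 4 stood above all miR-100 arrays, while wild type replicates 2 and 3 lay within their range. The difference was -0.16 (95% interval -0.49 to 0.16), which is a fold of 0.893 (0.713 to 1.12). It did not pass the two-sided exact permutation test over 70 assignments (p = 0.286, where 0.0286 is the smallest p possible), and the limma adjusted p was 0.876. The miR-100 arrays were closer together than the wild type arrays, with an SD of 0.08 among miR-100 arrays and 0.23 among wild type arrays. Arrays measure RNA, so an effect on Bmpr2 translation alone would not be seen.

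Among the other type II receptors Tgfbr2 had the lowest difference. Tgfbr2, which binds TGF-beta ligands, had 9.00, 8.96, 9.00 and 9.68 in miR-100 hearts, against 9.02, 9.47, 9.42 and 9.61 in wild type hearts, a difference of -0.22 (SE 0.19, adjusted p = 0.866, limma). Of the miR-100 arrays 3 lay below every wild type array, and miR-100 replicate 4 lay above all of them. Without that array the difference was -0.39 (unadjusted p = 0.0414, adjusted p = 0.658, limma). Acvr2a and Acvr2b, receptors for activin, myostatin and some BMPs, differed by 0.11 and 0.06.

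Type I receptors differed by -0.17 to 0.20. Acvrl1, the endothelial receptor for Bmp10 and its relative Gdf2, had 7.81, 8.45, 8.37 and 8.32 in miR-100 hearts, against 7.99, 8.06, 8.26 and 7.86 in wild type hearts. Of the miR-100 arrays 3 exceeded every wild type array, and replicate 1 was the lowest of all 8. The difference was 0.20 (SE 0.17, adjusted p = 0.866, limma). Without miR-100 replicate 1 it was 0.34 (unadjusted p = 0.0563, adjusted p = 0.777, limma), and without miR-100 replicate 2 it was 0.12. Acvr1, a BMP and activin receptor, differed by 0.19, and Acvr1b, the main activin receptor, by -0.17. The TGF-beta receptor Tgfbr1 differed by -0.07, the dim Bmpr1b, the other member on the target list, by 0.08, and the BMP receptor Bmpr1a averaged 10.86 in miR-100 hearts and 10.86 in wild type hearts.

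Both co-receptors help ligands reach the signalling receptors. Tgfbr3, which presents TGF-beta 2 in particular, had 10.58, 9.62, 10.33 and 10.02 in miR-100 hearts, against 10.72, 10.47, 10.50 and 10.64 in wild type hearts. Of the miR-100 arrays 3 lay below every wild type array, and miR-100 replicate 1 lay within the wild type range. The difference was -0.45 (SE 0.19, unadjusted p = 0.0383, adjusted p = 0.611, limma), with an SD of 0.41 among miR-100 arrays and 0.12 among wild type arrays. Without miR-100 replicate 2, the lowest of the 8 arrays, the difference was -0.27 (unadjusted p = 0.146, limma). Eng encodes endoglin, an endothelial co-receptor that works with Acvrl1. It averaged 13.58 ± 0.18 in miR-100 hearts and 13.52 ± 0.09 in wild type hearts (SD, n = 4 each) and so differed by 0.07.

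The SMAD genes that carry the signal inward differed by -0.14 to 0.15. Smad2, which serves TGF-beta and activin receptors, had 7.78, 7.85, 7.69 and 7.95 in miR-100 hearts, against 7.91, 7.78, 7.88 and 8.24 in wild type hearts, a difference of -0.14 (SE 0.15, adjusted p = 0.898, limma). Wild type replicate 4 was the highest of the 8 arrays, and the other 7 shared a range. Its partner Smad3 differed by 0.15. The BMP-regulated Smad1 and Smad5 differed by -0.06 and -0.13. Smad4, the partner shared by both branches, averaged 11.68 ± 0.17 in miR-100 hearts and 11.68 ± 0.15 in wild type hearts (SD, n = 4 each).

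The inhibitory SMADs are themselves induced by signalling and feed back on it. Smad7, which blocks TGF-beta receptors, had 5.09, 5.29, 5.06 and 5.21 in miR-100 hearts, against 5.16, 5.10, 4.53 and 5.17 in wild type hearts. A single low wild type array, replicate 3, lay outside an otherwise common range. The difference was 0.17 (SE 0.17, adjusted p = 0.882, limma) and was 0.02 without that array. Smad6, which acts mainly against BMP signals, differed by -0.11.

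How far single arrays shaped these values was followed by leaving out each array in turn. No member passed the adjusted threshold in any of the 8 fits, and 0 of 312 member values did, with a lowest adjusted p of 0.520. The count at an unadjusted p under 0.05 was 0 without miR-100 replicate 2, beside 6.7% of all rows in the same fit. Among fits that left out a wild type array it was 1 without replicate 1 (7.27% of all rows), 4 without replicate 2 (8.22% of all rows) and 0 without replicate 4 (8.29% of all rows). Those 4 were Bmp1, Bmp4, Mstn and Tgfbr3. Bmp1 ran from -0.41 to -0.28 and Tgfbr3 from -0.59 to -0.27, each at an unadjusted p under 0.05 in 4 of the 8 fits. Bmpr2 was lowest, at -0.24, without wild type replicate 3, and nearest to 0, at -0.07, without replicate 4 of that group. The direction was the same in all 8 fits for 23 of the 39 genes. These fits share most of their arrays, and the share of all rows that kept their direction was not computed.

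**Figure D3:**
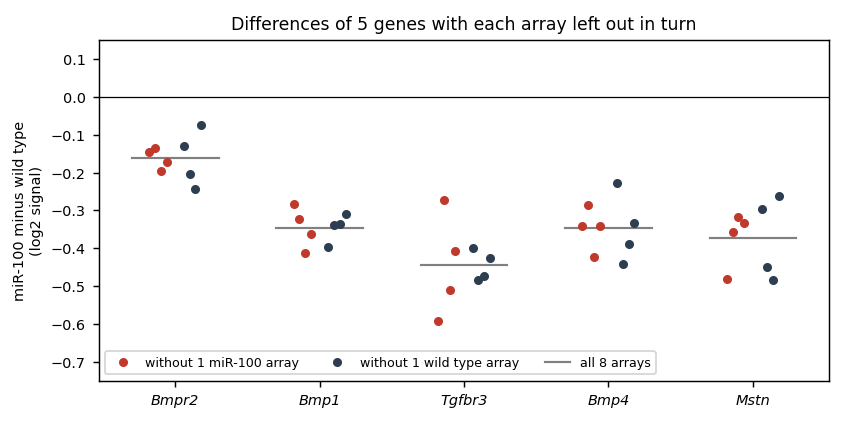
Differences of 5 genes (vertical axis, miR-100 minus wild type, log2 signal) in the 8 fits that each leave out 1 array. Red points leave out a miR-100 array, dark points a wild type array, and grey lines show all 8 arrays. Bmpr2 is shown with the members of lowest unadjusted p in the limma fit of all 8 arrays, each with a difference below 0 there. All points lie below 0, in fits that share most of their arrays, and those of Bmpr2 lie between -0.24 and -0.07.

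Other genes of the pathway were counted in lists chosen for their roles. Over 125 measured genes that are not among the 39, 0 passed over all rows (limma), and 8 had an unadjusted p under 0.05, 6 higher and 2 lower in miR-100 hearts, beside 7.73% of all rows, with 3.55% higher and 4.17% lower. The median difference of these 125 genes was 0.0025, with 63 above 0 and 62 below 0. In 5 of them the groups did not overlap, beside 4.54% of all rows.

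Of 19 other ligands 0 had an unadjusted p under 0.05, with Gdf9 at -0.30 and Nodal at -0.34 having the lowest p. Of 8 other receptors and co-receptors 0 did, with the BMP co-receptors Neo1 at 0.30 and Hjv at 0.16. Of 18 other inhibitors and carriers, 2 did. Nrros, which anchors latent TGF-beta on macrophages and microglia, had 5.41, 5.39, 5.55 and 5.46 in miR-100 hearts, against 5.21, 5.24, 5.14 and 4.68 in wild type hearts, a difference of 0.39 (adjusted p = 0.568, limma). Chrdl1, a secreted BMP antagonist, differed by 0.44 (adjusted p = 0.611, limma). With each array left out in turn, Nrros was at an unadjusted p under 0.05 in 5 of 8 fits and Chrdl1 in 4 (limma). The arrays of Nrros did not overlap between groups, and its difference was 0.26 without wild type replicate 4.

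Among 14 genes listed for latent TGF-beta activation 0 had an unadjusted p under 0.05, and the integrin genes Itgb8 and Itgb5 differed by -0.32 and 0.30. Of 28 SMAD regulators and partners, 1 did: Tab2, an adaptor of the kinase Map3k7, differed by -0.31 (adjusted p = 0.640, limma). With each array left out in turn, Tab2 was at an unadjusted p under 0.05 in 2 of 8 fits (limma). Ctdsp1, a phosphatase of SMADs, differed by 0.30. Of 18 genes reported as targets of the miR-99/100 family, Bmpr2 and Bmpr1b included, 12 had differences below 0, 0 passed over all rows (limma) and 2 were lower at an unadjusted p under 0.05. Over all rows 53% lay below 0 and 4.17% were lower at that p. The 2 genes were Smarca5 at -0.42 (adjusted p = 0.459, limma) and Trib2 at -0.38 (adjusted p = 0.618, limma). Without single arrays Smarca5 was at an unadjusted p under 0.05 in 8 of 8 fits and Trib2 in 3 (limma).

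**Figure D4:**
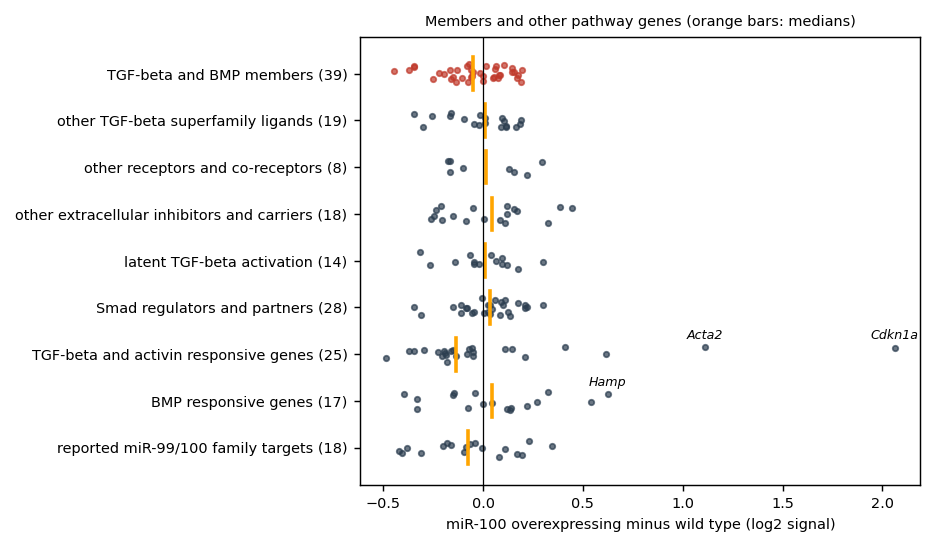
Differences (horizontal axis, miR-100 overexpressing minus wild type, log2 signal) of the 39 members and of the genes of 8 other lists, with the number of measured genes in brackets and list medians as orange bars. List medians lie between -0.14 and 0.04, and Acta2 and Cdkn1a lie at 1.11 and 2.06.

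Over 25 genes known to respond to TGF-beta and activin the median difference was -0.14, with 7 above 0 and 18 below 0. None passed over all rows (0 in limma), and 2 were higher at an unadjusted p under 0.05. Over all rows the median was -0.015, 53% lay below 0 and 3.55% were higher at that p. Acta2, the smooth muscle actin of contractile fibroblasts and vessel walls, had 13.74, 14.01, 14.66 and 12.94 in miR-100 hearts, against 12.86, 12.71, 12.72 and 12.61 in wild type hearts. All miR-100 arrays exceeded all wild type arrays, and they spread more widely. The difference was 1.11 (SE 0.27, unadjusted p = 0.00135, adjusted p = 0.203, limma), and it was 1.41 with an adjusted p of 0.0442 without miR-100 replicate 4. In the other 7 fits without an array its adjusted p did not pass. The mean log2 signal of 7 markers of activated fibroblasts, Acta2 included, was 6.46 to 6.58 in miR-100 hearts and 6.15 to 6.37 in wild type hearts, without overlap. Of those 7 markers 3 had differences above 0, chiefly Acta2 and Meox1 (0.82, unadjusted p = 0.0302), while Postn, Cilp, Comp and Tnc lay between -0.30 and -0.05. The part of such cells in the values of Acta2 was not tested.

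Cdkn1a, a cell cycle inhibitor that TGF-beta and also p53 induce, had 11.66, 10.82, 11.68 and 9.89 in miR-100 hearts, against 8.53, 7.39, 10.30 and 9.58 in wild type hearts. The groups overlapped through miR-100 replicate 4 and wild type replicate 3, and the difference was 2.06 (SE 0.53, unadjusted p = 0.00189, adjusted p = 0.234, limma). With each array left out in turn, Cdkn1a was at an unadjusted p under 0.05 in 8 of 8 fits and passed the adjusted threshold in 0 (limma). The matrix-linked genes of the list ran in both directions without passing. Ccn2, a matrix-associated growth factor, differed by 0.62 (SE 0.32) and Lox, a collagen crosslinking enzyme, by 0.41 (SE 0.20). Col1a2, a chain of collagen I, differed by -0.37 (SE 0.18) and Postn, a matrix protein of activated fibroblasts, by -0.30 (SE 0.20).

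Over 17 BMP-responsive genes the median difference was 0.04, with 9 above 0 and 8 below 0. None passed over all rows (0 in limma), and at an unadjusted p under 0.05 there were 2 higher and 1 lower. At that p 3.55% of all rows were higher and 4.17% lower, and 53% of all rows lay below 0. Hamp and Hamp2, the hepcidin genes of the mouse, had the lowest p. Hamp2 had 6.92, 6.86, 6.87 and 6.94 in miR-100 hearts, against 6.46, 6.05, 6.59 and 6.32 in wild type hearts, a difference of 0.54 (SE 0.15, adjusted p = 0.297, limma). Hamp had 6.83, 7.07, 6.86 and 6.34 in miR-100 hearts, against 6.41, 5.98, 5.94 and 6.27 in wild type hearts, a difference of 0.63 (SE 0.18, adjusted p = 0.328, limma). Groups were apart for Hamp2 and met for Hamp, where miR-100 replicate 4 lay below wild type replicate 1. The 2 genes are close copies, so their probes may share signal and each value is uncertain for that reason.

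The inhibitor of differentiation genes, which BMP signals induce in many cell types, averaged below wild type hearts or near them. Id1 had 11.14, 11.19, 11.37 and 11.20 in miR-100 hearts, against 11.83, 11.11, 11.38 and 11.90 in wild type hearts, a difference of -0.33 (SE 0.18, adjusted p = 0.716, limma). Id2 differed by -0.40 (SE 0.18, unadjusted p = 0.0442, adjusted p = 0.629, limma), Id3 by -0.33 (SE 0.20) and Id4 by -0.0025 (SE 0.16). Without single arrays Id2 was at an unadjusted p under 0.05 in 3 of 8 fits, and Hamp and Hamp2 in 8 of 8 (limma). In 0 of those fits did any of these genes pass the adjusted threshold. So within this list the hepcidin genes and Id1 to Id3 differed in opposite directions, and none passed.

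**Figure D5:**
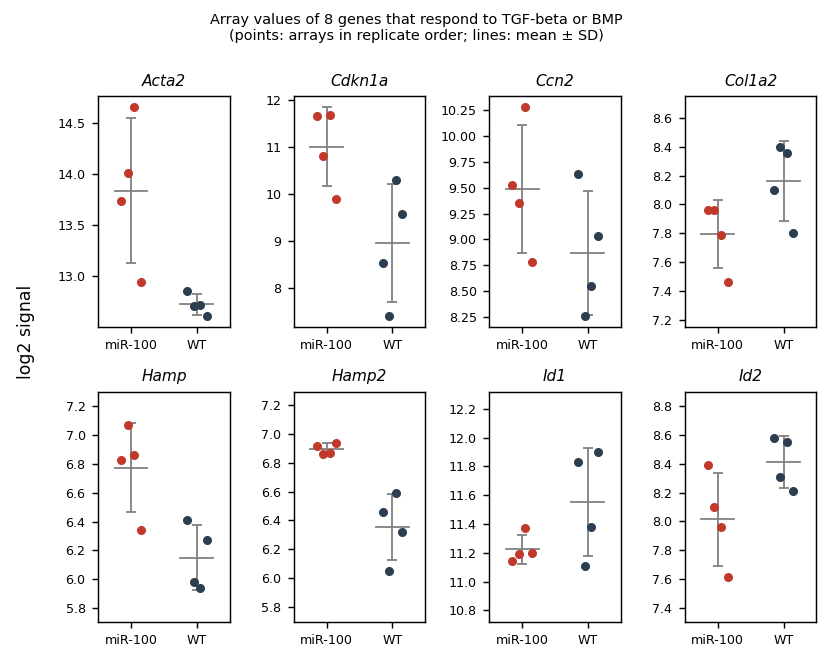
Log2 signal (vertical axes, each panel with its own range) on each array for 8 genes that respond to TGF-beta or BMP. Points are arrays, with miR-100 overexpressing left and wild type right, and lines give mean ± SD (n = 4 each). The groups are apart for Acta2 and Hamp2 and overlap in the other panels.

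Markers of the ventricle's other cell types were read on the same arrays. Mean log2 signal over 9 fibroblast markers was 10.63 to 10.97 in miR-100 hearts and 10.79 to 11.08 in wild type hearts. Over 9 endothelial markers it was 11.51 to 11.69 in miR-100 hearts and 11.47 to 11.62 in wild type hearts. Of 10 smooth muscle and pericyte markers, Acta2 included, 5 had differences above 0 and 5 below 0, and their mean log2 signal was 9.47 to 9.79 in miR-100 hearts and 9.53 to 9.73 in wild type hearts. Myh11, Tagln and Cnn1, which mark contractile smooth muscle, differed by -0.06, -0.19 and 0.05. Over 9 macrophage markers the signal was 8.71 to 9.13 in miR-100 hearts and 8.65 to 9.10 in wild type hearts. Over 8 atrial markers, Bmp10 included, it was 7.03 to 7.21 in miR-100 hearts and 7.05 to 7.13 in wild type hearts, a mean that joins genes with differences of both signs. Nppa, the atrial natriuretic peptide gene that stressed ventricle also makes, had 18.76, 18.07, 18.11 and 18.48 in miR-100 hearts, against 17.53, 17.15, 17.04 and 17.54 in wild type hearts. Its groups were apart, with a difference of 1.04 (unadjusted p = 0.000103, adjusted p = 0.0616, limma) that did not pass, while Myl7 differed by -0.40 and Dkk3 by -0.40. The part of cell type shares in the values of Tgfbr3 and Bmp1 was not tested.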

How the data were processed

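Left ventricular RNA of 8 mice (4 miR-100 overexpressing, 4 wild type), as the design text implies, was measured on Affymetrix arrays. The authors deposited a log2 signal for each transcript cluster. The submitters' processing notes name Transcriptome Analysis Console 4.0, and TriPure extraction and WT Plus labelling are per the labels' protocols. The sources used here do not give the summarization, the normalization or the build. Column medians ran from 5.70 to 5.74 and values from 2.29 to 19.93. The values are array signals, so read depth does not apply. Symbols came from the platform annotation.

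Groups were compared with limma 3.58.1 in R 4.3.3 on the values as deposited, without filter or covariate, with Benjamini-Hochberg adjustment over all 22206 rows and a threshold of 0.05. Bmpr2 also had an exact permutation test. Where a list gene had several rows, the brightest stood for it. Values on every array are given for Bmpr2, the lowest unadjusted p in each role and members with an unadjusted p under 0.05; from other lists the 2 with the lowest p are named. Tgfb1, Bmp4, Bmp6, Id1, Nppa and other list genes were added after their values were seen. The members, lists and tests were chosen with earlier results of these data known. Replicate numbers did not pair the arrays (correlations of same-numbered deviations -0.06 to 0.07). Alternatives were quantile normalization, centring on array medians, filters on dim rows, named rows alone, an intensity trend, array weights, robust moderation, a looser threshold, a replicate block and leaving out each array.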

Additional observations from a re-analysis of the deposited data

Results flagged for a closer look

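In 3 of 78 sets of 4 arrays (39 genes in 2 groups) a single array stood far from the other 3, where chance flags about 5% of such sets. Tgfbr2 was 9.68 in miR-100 replicate 4, against 8.96 to 9.00 in the other miR-100 arrays. Acvr2a was 9.85 in the same array, against 9.52 to 9.56 in the other miR-100 arrays, and without it the difference between groups was 0.03 in place of 0.11. Both are type II receptor genes, but Bmpr2 and Acvr2b, the other type II receptor genes among the members, were not flagged. Smad7 was 4.53 in wild type replicate 3, and the other 3 arrays of that group held 5.10 to 5.17.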

How the results depend on the processing

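No member passed an adjusted p of 0.05 under any alternative, or at an adjusted p under 0.1 (0 in each). Over all rows 31 passed, with 65 under an intensity trend, 65 at an adjusted p under 0.1 and 11 to 27 without single arrays. The count of members at an unadjusted p under 0.05 was 2, and 0 to 4 without single arrays. The median difference over the members was -0.0525 and ran from -0.063 (without miR-100 replicate 2) to 0.0042 (without miR-100 replicate 3). Bmpr2 ran from -0.24 to -0.07 without single arrays, with exact permutation p of 0.0571 to 0.514. With the replicate block 21 rows and 0 members passed, the members at an unadjusted p under 0.05 numbered 3 (beside 7.44% of all rows in that fit), and the Bmpr2 difference was -0.16 (adjusted p = 0.895, limma). Of the 11 members plotted by array, 8 kept their direction under all alternatives. Mstn, Nog and Smad7 kept theirs under those that held them, since the filter at the 50th percentile of row means left them out. With 4 arrays a group, the 95% intervals, which are not adjusted for the number of rows, reached 0.28 to 0.49 to either side. Smaller changes could not be told from 0 in these genes, and dim rows give no order. Larger differences could also fail to pass over all rows, as did Tgfbr3 at -0.45 (adjusted p = 0.611, limma).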
